A study of Mus musculus with 4 samples.

Results

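The 10 genes described here encode inflammatory cytokines and chemokines: the cytokines Il6, Osm, Tnf, Il1a and Il1b and the chemokines Ccl3, Ccl4, Ccl6, Ccl9 and Cxcl2. They were taken by name from a deposited table of 23240 mouse genes, and all 10 were in it. RNA was sequenced from leukaemic mouse bone marrow cells of the RUNX1-FLT3ITD AML type, an acute myeloid leukaemia named after RUNX1 and the activated receptor FLT3-ITD, on a B6 background and sorted as GFP+BFP+CD11b-Gr1-. Before the sort, marrow had been kept for 22 h in SFEM medium with FLT3L, SCF, IL3 and IL11. The cultures received either 200 nM 4OHT (4-hydroxytamoxifen, an oestrogen receptor ligand often used to switch engineered proteins) or an equal volume of its solvent, ethanol (EtOH). The groups were 4OHT with Runx1 delta/delta (replicate 1), EtOH with Runx1 delta/delta (replicate 1), 4OHT with Runx1 delta/+ (replicate 2) and EtOH with Runx1 delta/+ (replicate 2). Every group was 1 library, so each treatment had n = 2, 1 per genotype, and genotype and replicate number cannot be told apart. All 4 groups share the RUNX1-FLT3ITD leukaemia and the deletion of at least 1 Runx1 allele. The labels give neither the protein that 4OHT acts on, nor the number of mice behind a library, nor whether both libraries of a genotype came from 1 mouse.

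As background, inflammatory cytokines are secreted proteins by which blood and tissue cells start and amplify inflammation. Their genes are typically switched on by NF-kB, AP-1 and C/EBP factors downstream of Toll-like, IL-1 and TNF receptors, and their mRNAs are typically short-lived because proteins such as tristetraprolin (Zfp36) bind AU-rich stretches in them and speed their decay. IL-6 and oncostatin M (Osm) belong to a family whose receptors share the gp130 subunit (Il6st) and act through JAK kinases and STAT3. Chemokines draw leukocytes along gradients: the CC chemokines described here mostly act on monocytes and other myeloid and lymphoid cells, and Cxcl2 acts on neutrophils through CXCR2. In bone marrow, several of these proteins also act on blood stem and progenitor cells.

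RefSeq's promoter table (build GRCm38.p6, which is not the build mm9 of the deposited values, so positions are given only for these sequences) held 8 of the 10 genes; Osm and Ccl4 were not in it. The 250 bases before the annotated start were searched on both strands for an NF-kB pattern (GGG, any 2 bases, TTTCC) and a RUNX pattern, TGTGGT. The NF-kB pattern was in 1.40% of all 27025 promoters of that length and in those of Il6, Cxcl2 and Ccl9; the RUNX pattern was in 14.2% of them and in that of Ccl3. These 4 promoters are printed because they carry such a match, 5′ to 3′ along the gene and with the matches in capitals; a match is a description of letters and not a bound site. Il6 lies at chr5:30012864-30013113, plus strand, with the match at positions -44 to -35 from the start. Cxcl2 lies at chr5:90903649-90903898, plus strand, with matches at -97 to -88 and -78 to -69. Ccl9 lies at chr11:83578637-83578886, minus strand, with a match read on the other strand at -35 to -26. Ccl3 lies at chr11:83649379-83649628, minus strand, with the RUNX match at -122 to -117.
Il6: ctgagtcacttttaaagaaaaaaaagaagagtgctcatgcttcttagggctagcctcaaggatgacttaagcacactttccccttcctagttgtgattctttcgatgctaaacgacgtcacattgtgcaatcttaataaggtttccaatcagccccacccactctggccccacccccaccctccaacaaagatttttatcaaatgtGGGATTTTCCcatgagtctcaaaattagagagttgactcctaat
Cxcl2: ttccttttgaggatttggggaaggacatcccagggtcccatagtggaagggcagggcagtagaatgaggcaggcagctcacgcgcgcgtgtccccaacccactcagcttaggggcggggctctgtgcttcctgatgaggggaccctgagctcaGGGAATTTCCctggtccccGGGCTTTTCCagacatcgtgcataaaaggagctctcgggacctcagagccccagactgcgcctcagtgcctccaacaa
Ccl9: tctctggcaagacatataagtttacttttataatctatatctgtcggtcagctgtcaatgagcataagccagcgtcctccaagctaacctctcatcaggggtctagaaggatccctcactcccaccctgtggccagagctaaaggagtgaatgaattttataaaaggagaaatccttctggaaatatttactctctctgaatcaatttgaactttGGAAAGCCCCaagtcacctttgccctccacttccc
Ccl3: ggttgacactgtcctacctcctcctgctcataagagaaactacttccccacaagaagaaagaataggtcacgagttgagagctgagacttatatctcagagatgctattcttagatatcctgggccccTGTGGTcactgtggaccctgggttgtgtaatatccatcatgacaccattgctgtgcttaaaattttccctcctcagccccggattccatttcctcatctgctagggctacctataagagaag
An AP-1 pattern, TGANTCA, was in the promoters of Il6, Il1a and Ccl9 and in 6.87% of all promoters. A C/EBP pattern, TTGNNNAA, was in 6 of the 8 (Il6, Tnf, Il1a, Il1b, Ccl3 and Cxcl2) and in 33.6% of all. No match of one pattern overlapped a match of another in these promoters.

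Levels are given in RPKM (reads scaled to gene length and to the mapped reads of the library), as deposited. Depth recovered from the steps of the RPKM values was 36.7 M mapped reads for 4OHT and 34.6 M for EtOH in Runx1 delta/delta, and 39.4 M for 4OHT and 33.7 M for EtOH in Runx1 delta/+. All 10 genes came out as whole reads, which are given where a level is low. Red cell transcripts differed between the treatments: globin genes held 0.917% and 0.662% of the summed RPKM in the 4OHT libraries, against 12.3% and 7.66% in the EtOH libraries. Runx1 itself, the gene that defines the genotypes, had 380 and 328 RPKM in the 4OHT libraries and 568 and 555 RPKM in the EtOH libraries; 1 value per gene does not show a deleted part, so it does not check the genotype labels. Because these are bulk samples, a change in the share of cells that make a transcript and a change in RNA per cell cannot be told apart.

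With 4OHT, 6 of the 10 genes rose: Il6, Tnf, Osm, Ccl3, Ccl6 and Ccl9. Il1b fell. Ccl4 was far higher with 4OHT in Runx1 delta/delta cells but not in Runx1 delta/+ cells and did not pass the test, and Il1a and Cxcl2 lay under the filter on low values. Summed over the 10 genes, the level was 124 RPKM in 4OHT and 19.9 RPKM in EtOH of Runx1 delta/delta, and 56.8 RPKM in 4OHT and 21.8 RPKM in EtOH of Runx1 delta/+. Osm made up between 28.9% and 40.3% of that sum in every library. The test was limma on log2(RPKM + 1) with treatment and genotype as terms, over the 9595 genes that averaged at least 1 RPKM across the libraries, and a gene was called at an adjusted p under 0.05. Of all genes tested, 32.4% were called for 4OHT, 22.2% as higher and 10.2% as lower; of the 8 members tested, 7 were called, 6 as higher and 1 as lower. After scaling by the median ratio between libraries, 1200 genes were called as higher and 1327 as lower, against 2130 and 983 as deposited, and 6 members were called as higher and 1 as lower. All 6 that rose had a fitted log2 change of at least 1. Of all genes tested, 7.39% were both called and higher by at least 1. The median change of the 8 was 1.76 on the log2 scale, beside 0.16 for all genes tested. The members were chosen with earlier results of these data known, so setting them beside all genes is a description and not a test. Both 4OHT libraries lay above both EtOH libraries for 7 of the 10 genes (38.4% of all genes tested did so), and below them for Il1a alone (16.9% of all genes tested). The 7 include Cxcl2. Cxcl2 and Il1a were not tested, so these shares are not over genes as low as these. Ccl6, whose EtOH libraries were both under 1 RPKM, passed the filter through its 4OHT libraries, so its place among the tested genes depends on its rise.

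**Figure D1:**
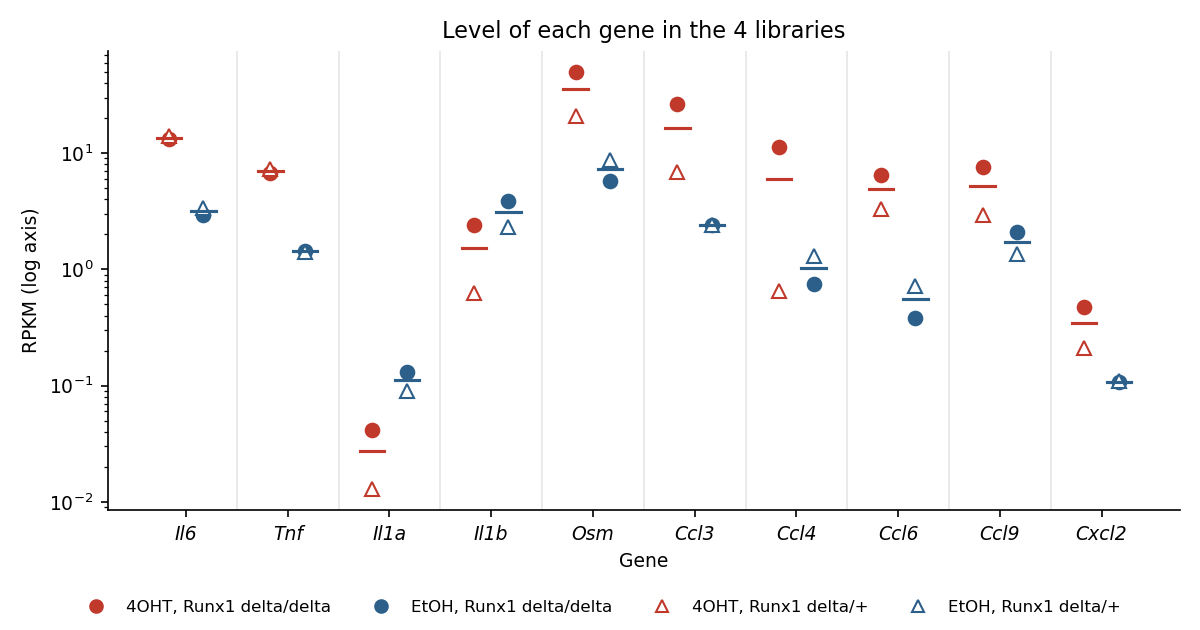
Level of each of the 10 genes in RPKM (vertical log axis) in the 4 libraries; filled circles are Runx1 delta/delta, open triangles Runx1 delta/+, red 4OHT, blue EtOH, and bars are the means of 2 libraries. Il6 and Tnf form tight pairs within each treatment, while the 4OHT points of Osm, Ccl3, Ccl4, Ccl6 and Ccl9 are spread, with Runx1 delta/delta on top.

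These calls rest on few libraries. Without the genotype term 2 of the 7 calls stood, Il6 and Tnf, and with no filter on low values 3 stood, Il6, Tnf and Ccl6. Leaving out 1 library, which also removes the genotype term, left 1 call without 4OHT Runx1 delta/delta (Il6), 0 without EtOH Runx1 delta/delta (5 of 8 at an unadjusted p under 0.05), 3 without 4OHT Runx1 delta/+ (Osm, Ccl3 and Ccl4) and 1 without EtOH Runx1 delta/+ (Il6). In these fits the treatment with 1 library is assumed to vary like the other. None of the fitted changes of a member turned round, but Ccl4 was not fitted without 4OHT Runx1 delta/delta, where it fell under the filter; its remaining 4OHT level, 0.654 RPKM, lies below both EtOH levels, 0.745 and 1.30 RPKM.

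Among the gp130 family, Il6 and Osm both rose. Il6, which encodes a cytokine of fever, the acute phase response and B cell and myeloid growth, had 13.1 RPKM in 4OHT and 2.93 RPKM in EtOH of Runx1 delta/delta, and 14.0 RPKM in 4OHT and 3.38 RPKM in EtOH of Runx1 delta/+. The 2 genotypes gave nearly the same level within each treatment, and the treatments stood well apart. Il6 averaged 13.6 ± 0.623 RPKM with 4OHT and 3.15 ± 0.324 RPKM with EtOH (SD, n = 2 each). The fold of 4OHT over EtOH was 4.49 for Runx1 delta/delta cells and 4.14 for Runx1 delta/+ cells, with 95% counting intervals of 3.65 to 5.56 and 3.41 to 5.06 that cover counting error only. The fitted change was 1.81 on the log2 scale (SE 0.14, limma adjusted p = 0.00288), the smallest adjusted p among the members.

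Osm encodes oncostatin M, a cytokine made by myeloid and T cells and, in mice, a known target of STAT5 downstream of IL-3. It was the most abundant member in all 4 libraries, at 50.1 RPKM in 4OHT and 5.76 RPKM in EtOH of Runx1 delta/delta, and at 20.9 RPKM in 4OHT and 8.74 RPKM in EtOH of Runx1 delta/+. The 4OHT libraries were both above the EtOH libraries, but they differed from each other more than the EtOH libraries did. The fold was 8.69 (counting interval 7.82 to 9.69) for Runx1 delta/delta cells and 2.39 (2.17 to 2.64) for Runx1 delta/+ cells. These 2 intervals do not meet, but they cover counting error only, and whether the genotypes differ in this response was not tested. The fitted change was 2.04 (SE 0.40, limma adjusted p = 0.0174), a call that did not hold once genotype was dropped from the model (adjusted p = 0.0745).

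Tnf encodes tumour necrosis factor, a cytokine that binds the receptors Tnfrsf1a and Tnfrsf1b, activates NF-kB and can trigger cell death. Tnf followed the same pattern as Il6. Its level was 6.68 RPKM in 4OHT and 1.45 RPKM in EtOH of Runx1 delta/delta, and 7.28 RPKM in 4OHT and 1.41 RPKM in EtOH of Runx1 delta/+. The groups did not overlap and the genotypes stood close together within each treatment, with means of 6.98 ± 0.422 RPKM for 4OHT and 1.43 ± 0.0252 RPKM for EtOH (SD, n = 2 each). The fold was 4.62 (counting interval 3.63 to 5.94) for Runx1 delta/delta cells and 5.15 (4.04 to 6.65) for Runx1 delta/+ cells. The fitted change was 1.71 (SE 0.16, limma adjusted p = 0.00355).

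The interleukin-1 genes did not follow the other cytokines. Il1b, which encodes the form of IL-1 that is cut by caspase 1 before release, had 2.42 RPKM in 4OHT and 3.90 RPKM in EtOH of Runx1 delta/delta, and 0.631 RPKM in 4OHT and 2.30 RPKM in EtOH of Runx1 delta/+. It was lower with 4OHT within each genotype, although the 4OHT library of Runx1 delta/delta lay slightly above the EtOH library of Runx1 delta/+. The fitted change was -0.77 (SE 0.20, limma adjusted p = 0.0377), and the call did not hold with a pseudocount of 0.1 (adjusted p = 0.0508) or once genotype was dropped (adjusted p = 0.352). Il1a, which encodes the form of IL-1 that also acts without cleavage, was nearly absent, with 3 reads in 4OHT and 9 in EtOH of Runx1 delta/delta, and 1 read in 4OHT and 6 in EtOH of Runx1 delta/+. These reads amount to 0.0414 and 0.0129 RPKM in the 4OHT libraries, against 0.132 and 0.0902 RPKM in the EtOH libraries. The fold of 0.314 in Runx1 delta/delta had a counting interval of 0.0547 to 1.26 and that of 0.143 in Runx1 delta/+ one of 0.0031 to 1.18, so neither pair alone showed a difference beyond counting error, although both went the same way.

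Of the CC chemokines, Ccl3, Ccl6 and Ccl9 rose and Ccl4 did not pass the test. Ccl3 encodes MIP-1 alpha, a ligand of CCR1 that also restrains the cycling of blood stem cells. Its level was 26.2 RPKM in 4OHT and 2.42 RPKM in EtOH of Runx1 delta/delta, and 6.91 RPKM in 4OHT and 2.40 RPKM in EtOH of Runx1 delta/+. Both 4OHT libraries, with 760 and 215 reads, were higher than the EtOH libraries, with 66 and 64 reads, but they differed from each other while the EtOH libraries were alike. The fold was 10.8 (counting interval 8.43 to 14.2) for Runx1 delta/delta cells and 2.87 (2.16 to 3.86) for Runx1 delta/+ cells. The fitted change, 2.10 (SE 0.41, limma adjusted p = 0.0170), was the largest among the members on the log2(RPKM + 1) scale and stood at rank 71 of the 9595 genes, counted from the greatest rise. With a pseudocount of 0.1 Ccl6 was above it (2.91 against 2.44), and without 4OHT Runx1 delta/delta it was 1.21, under Il6 at 1.85.

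Ccl4 encodes MIP-1 beta, a leukocyte attractant whose gene lies next to Ccl3. It had 11.3 RPKM in 4OHT and 0.745 RPKM in EtOH of Runx1 delta/delta, but 0.654 RPKM in 4OHT and 1.30 RPKM in EtOH of Runx1 delta/+. A single library therefore stood high, with 275 reads against 17, 17 and 29 in the other libraries. The fold was 15.2 (counting interval 9.34 to 26.5) for Runx1 delta/delta cells and 0.501 (0.259 to 0.944) for Runx1 delta/+ cells, on opposite sides of 1. The fitted change of 1.17 had a 95% interval of -0.67 to 3.01 (SE 0.73, limma adjusted p = 0.267), and without 4OHT Runx1 delta/+ it was called (adjusted p = 0.0269), with the spread then taken from the EtOH libraries and 1 high library left in 4OHT. Of all genes tested, 18.7% had log2 ratios of opposite sign in the 2 genotypes, and Ccl4 was the one member among the 8 tested that did. In RefSeq on GRCm38 the spans of Ccl3 and Ccl4, from first to last base, overlap. Whether the authors' counting used strand is not stated in the labels or headers. Overlap of the exons that were counted was not examined, so whether any reads could have gone to either gene is not known.

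Ccl6 and Ccl9 encode rodent CC chemokines of myeloid cells that bind CCR1. Ccl6 had 6.5 RPKM in 4OHT and 0.383 RPKM in EtOH of Runx1 delta/delta, and 3.29 RPKM in 4OHT and 0.723 RPKM in EtOH of Runx1 delta/+. With a fold of 17.0 (counting interval 10.7 to 28.6) for Runx1 delta/delta cells and 4.55 (3.16 to 6.72) for Runx1 delta/+ cells, it had the highest ratio of the members in the first genotype (log2 change 1.88, SE 0.30, limma adjusted p = 0.0103). Ccl9 had 7.54 RPKM in 4OHT and 2.09 RPKM in EtOH of Runx1 delta/delta, and 2.94 RPKM in 4OHT and 1.35 RPKM in EtOH of Runx1 delta/+. Its 4OHT libraries were both above its EtOH libraries, by a smaller margin than for Ccl3 or Ccl6, with folds of 3.61 and 2.18 (log2 change 1.11, SE 0.22, limma adjusted p = 0.0186). Their transcripts were the one pair among 45 pairs of members that shared any stretch of 25 bases, and they shared 1 such stretch, so few reads could be split between them.

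Cxcl2 encodes MIP-2, a neutrophil attractant that binds CXCR2. It stood at 0.478 RPKM in 4OHT and 0.107 RPKM in EtOH of Runx1 delta/delta, and at 0.211 RPKM in 4OHT and 0.110 RPKM in EtOH of Runx1 delta/+. These levels rest on 19 and 9 reads in the 4OHT libraries and on 4 reads in each EtOH library. The fold of 4.47 in Runx1 delta/delta had a counting interval of 1.49 to 18.1, and the fold of 1.92 in Runx1 delta/+ one of 0.537 to 8.55. In a fit with no filter, neither Cxcl2 (log2 change 0.27, adjusted p = 0.10) nor Il1a (log2 change -0.11, adjusted p = 0.0675) was called by limma; their unadjusted p were 0.0240 and 0.0121.

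**Figure D2:**
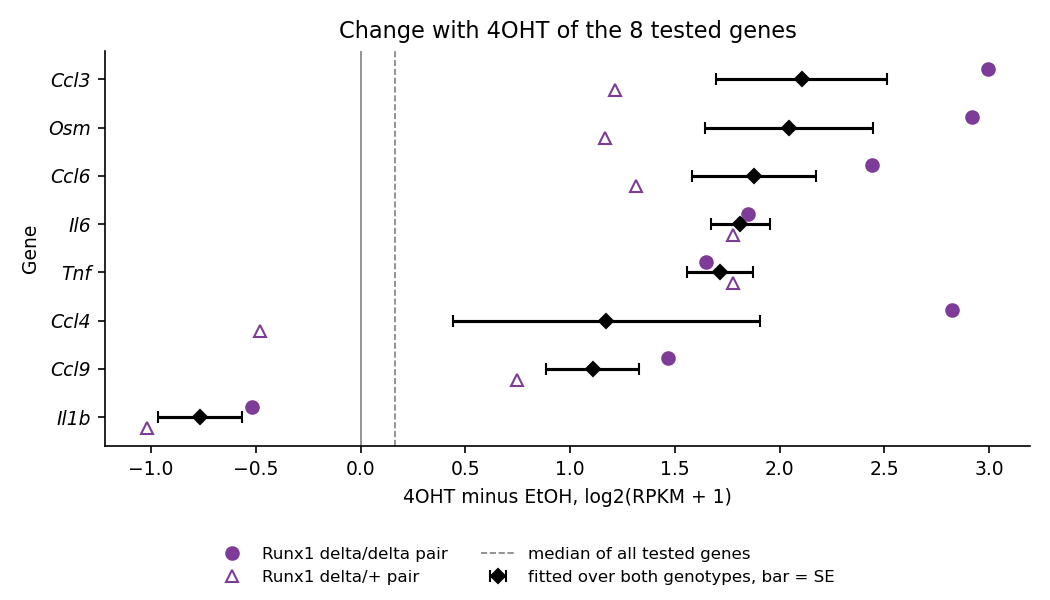
Change with 4OHT, as 4OHT minus EtOH on the log2(RPKM + 1) scale (horizontal axis), of the 8 tested genes; diamonds are the fitted change with its SE, circles the Runx1 delta/delta pair, triangles the Runx1 delta/+ pair, and the dashed line is the median of all tested genes, 0.16. The 2 pairs lie together for Il6 and Tnf and apart for Osm, Ccl3, Ccl6 and Ccl4, where Ccl4 falls on both sides of 0.

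Ordered by mean level per length with 4OHT, the members ran Osm, Ccl3, Il6, Tnf, Ccl4, Ccl9, Ccl6, Il1b, Cxcl2 and Il1a. Neighbours in that order overlapped in 5 of 9 pairs; the steps from Il6 to Tnf, from Ccl6 to Il1b, from Il1b to Cxcl2 and from Cxcl2 to Il1a were the ones that did not. With EtOH the order was Osm, Il6, Il1b, Ccl3, Ccl9, Tnf, Ccl4, Ccl6, Il1a and Cxcl2, with 4 of 9 neighbouring pairs overlapping (Il6 with Il1b, Il1b with Ccl3, Ccl9 with Tnf, and Il1a with Cxcl2). Il1b thus stood at rank 8 in the 4OHT libraries and at rank 3 in the EtOH libraries. In single libraries, 8 members reached 1 RPKM in 4OHT and 6 in EtOH of Runx1 delta/delta, and 6 in 4OHT and 7 in EtOH of Runx1 delta/+.

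The second factor in the design is the Runx1 genotype. Across both treatments, 0 of the 8 members tested and 11.6% of all genes tested were called between Runx1 delta/delta and Runx1 delta/+ by limma. With so few members, 0 calls does not set them apart from that share. With no filter on low values, 0 genes of the whole table were called for genotype. Il1b (higher in Runx1 delta/delta by 0.82 on the log2 scale, SE 0.20, adjusted p = 0.0580) and Ccl9 (0.75, SE 0.22, adjusted p = 0.0850) were the 2 members with an unadjusted p under 0.05. For Il6 and Tnf the intervals were narrow, with differences of -0.12 (95% interval -0.48 to 0.23) and -0.04 (-0.44 to 0.35). Within the 4OHT libraries, Ccl4 was 17.4-fold higher in Runx1 delta/delta than in Runx1 delta/+ (counting interval 10.6 to 30.2), Il1b 3.84-fold, Ccl3 3.79-fold, Ccl9 2.56-fold, Osm 2.40-fold and Ccl6 1.98-fold. In the EtOH libraries the same ratios were 0.571 for Ccl4, 1.69 for Il1b, 1.0 for Ccl3, 1.54 for Ccl9, 0.659 for Osm and 0.529 for Ccl6. Of the 6 members that rose with 4OHT, 5 had a larger ratio of 4OHT to EtOH in Runx1 delta/delta, Tnf being the exception, and 78.2% of all genes called as higher with 4OHT did too. With 1 library per treatment and genotype, whether the response differs between genotypes could not be tested.

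Sequence features and places in the genome, which the choice of genes did not use, were shared by some of the members. In a GENCODE annotation of GRCm38, the AU-rich nonamer TTATTTATT occurred 5 times in the 3′ untranslated region of Tnf and 4 times in that of Cxcl2, but in none of the other 8. Of 20814 genes, 7.65% held at least 1 such nonamer and 0.668% held at least 3. The shorter element ATTTA occurred at 2.03 per kb in Ccl9 up to 12.1 per kb in Ccl3, while the median of all genes was 1.25 per kb. By RefSeq's gene order on GRCm38, Ccl9, Ccl6, Ccl3 and Ccl4 are consecutive coding genes on chromosome 11, Il1a and Il1b are neighbours on chromosome 2, and Tnf lies between Ltb and Lta on chromosome 17. Osm lies beside Lif on chromosome 11, and Cxcl2 beside Cxcl1 on chromosome 5. The 4 neighbouring CC chemokine genes had fitted changes of 1.11 for Ccl9, 1.88 for Ccl6, 2.10 for Ccl3 and 1.17 for Ccl4, with Ccl4 not called.

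Other ligand genes moved in both directions. Among 34 other cytokine genes in the table, 7 were tested, 2 rose and 1 fell, and their median change was -0.06. Lif, a gp130 cytokine and the neighbour of Osm, had 9.25 RPKM in 4OHT and 1.04 RPKM in EtOH of Runx1 delta/delta, and 9.27 RPKM in 4OHT and 1.87 RPKM in EtOH of the Runx1 delta/+ cultures (log2 change 2.09, SE 0.18, limma adjusted p = 0.00320). Like Il6 and Tnf, it was at nearly the same level in both 4OHT libraries. Flt3l, which encodes the FLT3 ligand that was also in the medium, rose by 1.08 (limma adjusted p = 0.00935), and Il4, a type 2 cytokine, fell by 0.97 (limma adjusted p = 0.0143). Among 29 other chemokine genes, 7 were tested, 0 rose and 3 fell; Cxcl10 and Cxcl3, whose 4OHT libraries were all under 1 RPKM, passed the filter through their EtOH libraries. Cxcl10, an interferon-induced ligand of CXCR3, had 0.248 and 0.346 RPKM in the 4OHT libraries of Runx1 delta/delta and Runx1 delta/+, against 10.4 and 3.21 RPKM in their EtOH libraries (log2 change -2.42, limma adjusted p = 0.00984). Pf4, the platelet chemokine, fell by 1.92 (limma adjusted p = 0.00320) and Cxcl3, a CXCR2 ligand like Cxcl2, by 1.45 (limma adjusted p = 0.0261). Without the genotype term, Lif was the one of these ligands still called.

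The receptors for these ligands were mostly low. Of 20 receptor, decoy and antagonist genes, 5 were tested, 1 rose and 2 fell. Il6st (gp130) was at most 0.163 RPKM in any library, and Osmr, the oncostatin M receptor, at most 0.00563 RPKM. Il6ra had 0.0977 and 0.0380 RPKM in the 4OHT libraries and 1.18 and 0.0444 RPKM in the EtOH libraries, in the order Runx1 delta/delta and Runx1 delta/+. Also under the filter, Tnfrsf1a (folds of 3.60 and 3.72), Tnfrsf1b (2.55 and 2.04) and Ccr1 (3.54 and 1.92) were higher with 4OHT in both genotypes. Tnfrsf1a reached 2.51 RPKM in 4OHT of Runx1 delta/+. Lifr (folds of 0.322 and 0.436) and Cxcr1 were lower in both. Il1r1, the signalling receptor for both IL-1 forms, fell to 0.579 RPKM in 4OHT, against 4.94 RPKM in EtOH, of Runx1 delta/delta, and to 0.383 RPKM in 4OHT, against 5.37 RPKM in EtOH, of the Runx1 delta/+ cultures (log2 change -2.06, limma adjusted p = 0.00320). Cxcr2, the receptor for Cxcl2 and Cxcl3, fell by 1.11 (limma adjusted p = 0.0155), and Il18rap, a subunit of the IL-18 receptor, rose by 0.89 (limma adjusted p = 0.0202). Il1r1 and Cxcr2, under 1 RPKM in both 4OHT libraries, also passed the filter through EtOH. Il18rap, with a mean of 0.797 RPKM in EtOH, passed it through its 4OHT libraries. Il1r1 was the one receptor still called without the genotype term.

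Among 26 genes of cytokine processing and signal transduction, 24 were tested, 6 rose and 1 fell, and after scaling by the median ratio between libraries 3 rose and 5 fell. Irak3, which encodes the inhibitory kinase IRAK-M of Toll-like and IL-1 receptor signalling, had 25.7 RPKM in 4OHT and 2.84 RPKM in EtOH of Runx1 delta/delta, and 23.0 RPKM in 4OHT and 4.84 RPKM in EtOH of the Runx1 delta/+ cultures (log2 change 2.42, limma adjusted p = 0.00320). It was the one gene of this list still called without the genotype term. Irak2, a kinase that sustains the same signal, fell by 1.40 (limma adjusted p = 0.00569). Stat3, the transcription factor downstream of gp130, rose by 0.81 (limma adjusted p = 0.0128), and Casp1, the protease that matures IL-1 beta, by 1.04 (limma adjusted p = 0.0153). Casp1, under 1 RPKM in both EtOH libraries, passed the filter through its 4OHT libraries. Of 11 regulators of cytokine mRNA stability, all tested, 0 rose and 1 fell. That gene was Zfp36, which encodes tristetraprolin, with 15.8 and 15.6 RPKM in the 4OHT libraries of Runx1 delta/delta and Runx1 delta/+, against 33.7 and 26.2 RPKM in their EtOH libraries (log2 change -0.88, limma adjusted p = 0.0130). Of 15 genes of Toll-like receptors and lipopolysaccharide sensing, 2 were tested; Unc93b1, which carries Toll-like receptors to endosomes, fell by 0.76 (limma adjusted p = 0.0356). Unc93b1, under 1 RPKM in both 4OHT libraries, passed the filter through EtOH. Tlr2 and Tlr4 did not pass the filter, at no more than 0.248 and 0.0150 RPKM in any library.

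**Figure D3:**
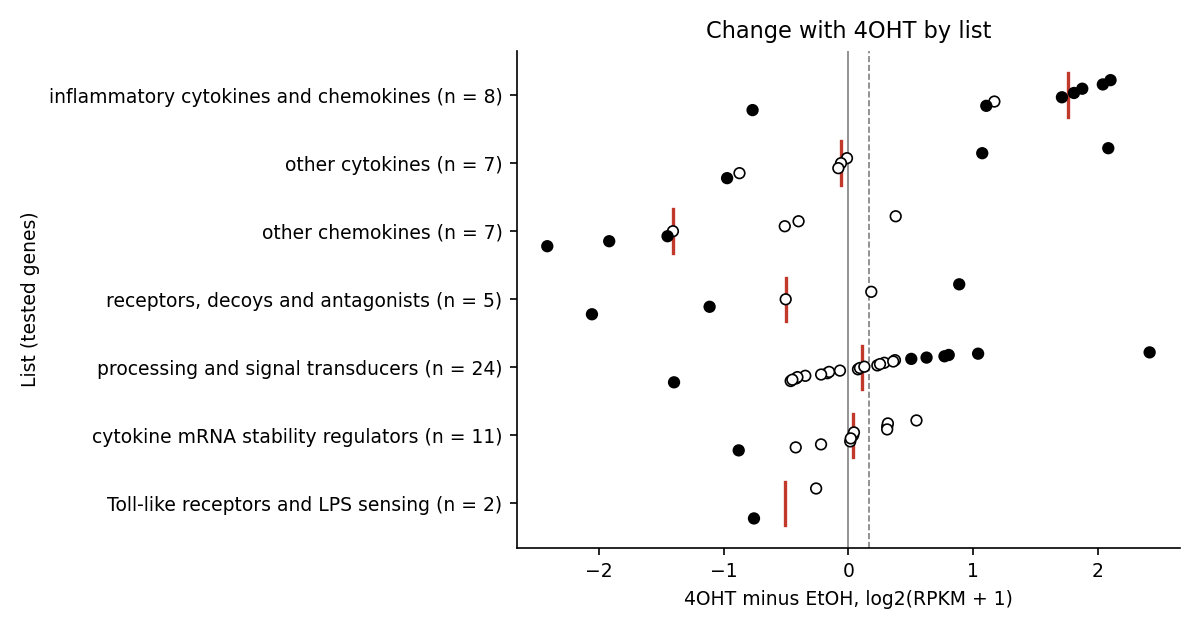
Change with 4OHT on the log2(RPKM + 1) scale (horizontal axis) of each tested gene, by list; filled points were called at an adjusted p under 0.05, open points were not, red bars are list medians and the dashed line is the median of all tested genes. The median of the 8 tested inflammatory cytokines and chemokines is 1.76, and 3 of the 7 other chemokines are filled points on the left of 0.

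Markers of other cells that the sort could hold were measured beside the members. Of 9 mast cell and basophil markers, 7 were tested and 3 rose (Cpa3, Prss34 and Ms4a2). The other tested markers were not called: Fcer1a had a fitted log2 change of 1.22, Mcpt8 of -0.79, Hdc of -0.65 and Cma1 of -0.58. Under median-ratio scaling Hdc was called as lower (limma adjusted p = 0.0330). The summed level of the 9 markers was 178 RPKM in 4OHT and 55.0 RPKM in EtOH of Runx1 delta/delta. In Runx1 delta/+ it was 65.7 RPKM in 4OHT and 89.5 RPKM in EtOH. Ms4a2, the beta chain of the high-affinity IgE receptor, had 14.2 RPKM in 4OHT and 0.859 RPKM in EtOH of Runx1 delta/delta, and 4.60 RPKM in 4OHT and 1.09 RPKM in EtOH of Runx1 delta/+, the closest profile to Ccl3 among all genes tested. Monocyte and macrophage markers were low, with sums of 11.4 and 7.16 RPKM in the 4OHT libraries and 7.41 and 5.86 RPKM in the EtOH libraries and 0 of 2 tested called; Cx3cr1 was at 0 in all libraries, and Itgam, which encodes the CD11b used in the sort, was at most 0.358 RPKM. Cd14, the lipopolysaccharide co-receptor of monocytes, was under the filter, with 1.11 RPKM in 4OHT and 0.155 RPKM in EtOH of Runx1 delta/delta, and 0.797 RPKM in 4OHT and 0.0793 RPKM in EtOH of the Runx1 delta/+ cultures, folds of 7.18 and 10.1. Others of this list went both ways. Lyz2 and Cd68 were also higher with 4OHT in both genotypes. Emr1 (folds of 0.843 and 0.513), Fcgr1 (0.680 and 0.122) and Itgam (0.828 and 0.737), all under the filter, were lower in both. Neutrophil markers summed to 47.0 and 18.8 RPKM in the 4OHT libraries, against 44.5 and 19.9 RPKM in the EtOH libraries; 3 were tested and 1, Cxcr2, fell. T and NK cell markers summed to 7.36 and 3.47 RPKM in the 4OHT libraries, against 2.74 and 0.926 RPKM in the EtOH libraries. Cd3e was at 0 throughout, and Nkg7 was called as higher, with 6.53 and 2.68 RPKM of the 4OHT sums. Lck, the other marker of this list tested, had a fitted log2 change of -0.50 and was not called. Nkg7 and Ms4a2, with EtOH means of 0.271 and 0.973 RPKM, passed the filter through their 4OHT libraries. B cell markers summed to at most 0.999 RPKM with Ms4a1 and Pax5 at 0, dendritic cell markers to at most 7.18 RPKM with Siglech and Xcr1 at 0, and stromal and endothelial markers to at most 0.124 RPKM with Cdh5 at 0. All 8 erythroid markers fell, to summed levels of 2008 and 1505 RPKM in the 4OHT libraries, against 46233 and 25076 RPKM in the EtOH libraries. Of the 3 progenitor markers tested 2 rose (Myb and Ptprc), and Flt3 was not called (log2 change 0.08, limma adjusted p = 0.752). Kit, under the filter, had 1.61 and 0.740 RPKM in the 4OHT libraries, against 0.0781 and 0.0973 RPKM in the EtOH libraries. Cd34, also under it, was at most 0.395 RPKM in any library. Without the genotype term, none of the mast cell and basophil, T and NK cell or progenitor calls stood and 3 of the 8 erythroid calls did; Ptprc was also lost under median-ratio scaling (adjusted p = 0.0581). The part of these other changes in the members' rise was not tested.

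**Figure D4:**
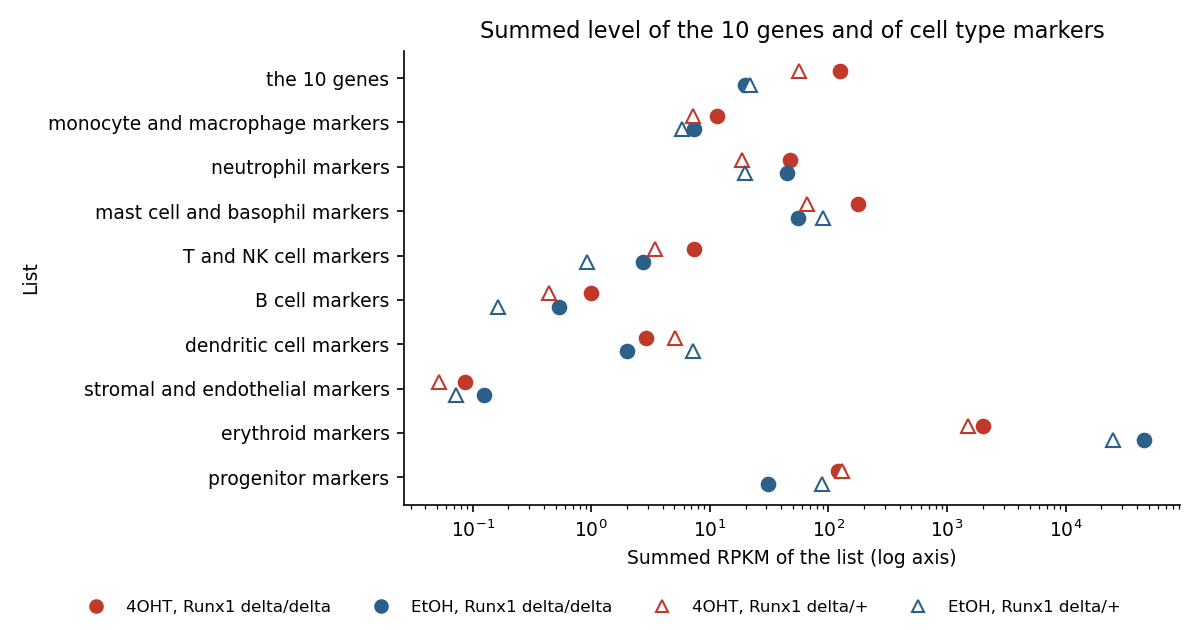
Summed RPKM (horizontal log axis) of the 10 genes and of each list of cell type markers in the 4 libraries; circles are Runx1 delta/delta, triangles Runx1 delta/+, red 4OHT and blue EtOH. The 10 genes sum to 124 and 56.8 RPKM with 4OHT and 19.9 and 21.8 RPKM with EtOH, and erythroid markers sit lower with 4OHT in both genotypes.

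For the member with the largest change on the log2(RPKM + 1) scale, Ccl3, and the one with the highest level, Osm, the tested genes with the most similar profile were found by the Euclidean distance between log2 values centred over the 4 libraries. Closest to Ccl3 were Ms4a2 at a distance of 0.30, Tarm1 at 0.35 and Csrp3 at 0.44. Closest to Osm were Kcng2 at 0.14, Csrp3 at 0.17 and Hsd17b1 at 0.24. Kcng2, Csrp3 and Hsd17b1 were under 1 RPKM in both EtOH libraries and passed the filter through their 4OHT libraries. Kcng2 had 0.0616 and 0.643 RPKM with EtOH, where Osm had 5.76 and 8.74 RPKM. A short distance on the log2(RPKM + 1) scale therefore does not mean a like level or fold. Over 4 libraries many genes can follow one profile closely, so these are descriptions.

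The authors' deposited table also sets 4OHT against EtOH within each genotype by Kal's test of proportions, which compares 2 libraries and not the conditions. In the authors' deposited table, 3 of the 10 members had a corrected p under 0.05 in Runx1 delta/delta: Osm (fold 9.27, 7.64e-08), Ccl3 (fold 11.6, 2.27e-04) and Ccl4 (fold 16.2, 0.0412). In Runx1 delta/+, 0 of 10 did in the authors' deposited table, where Il6 had a fold of 4.29 (corrected p = 0.271) and Osm one of 2.47 (corrected p = 0.486).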

How the data were processed

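Gene expression was measured by RNA sequencing of total RNA in 4 libraries. Per the labels' protocols, libraries were made with a TruSeq or a NEBNext kit; the sources used here do not say which kit served which library, which aligner and annotation were used, or whether strand was counted. The build is mm9 per the submitters' processing notes. Per the file headers, the authors deposited RPKM per library, and, for each replicate number, a signed fold score of proportions with its raw and corrected p-values from Kal's test.

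Whole reads were recovered from the RPKM steps (tolerance 0.02 reads; 120 of 465 single-transcript genes shared the library totals), and intervals of folds are exact conditional 95% intervals on these reads (SciPy 1.17.1). Since the values are RPKM and not counts, limma 3.58.1 in R 4.3.3 was run on log2(RPKM + 1) for the 9595 genes averaging at least 1 RPKM. The model had terms for genotype and treatment and a trended prior; tests were two-sided, with Benjamini-Hochberg adjustment over all these genes and a threshold of 0.05. Changes on this scale understate those of low genes. Residual degrees of freedom were 1, and the prior gave 4.37 more. The replicate number, which is the genotype, thereby entered as a block; same-numbered libraries deviated together (correlation across genes 0.664). Library correlations were 0.869 to 0.964, so none was a copy. Nothing says that libraries came from separate cultures or mice beyond their genotype. The 1 residual degree of freedom is how far the responses to 4OHT differ between the genotypes. The p-values rest on that difference and on the prior from other genes, and not on replicates of a condition.

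The members and gene lists were chosen with earlier results of these data known. Besides the members, up to 4 called genes per pathway list with the smallest p were named, and the 3 genes nearest in profile to Ccl3 and to Osm; receptors, Toll-like receptors and markers under the filter were named after their values were seen. Sequences came from RefSeq and GENCODE tables of GRCm38 by symbol. The fit was tested on simulated data. Alternatives were a pseudocount of 0.1, no filter, a mean of at least 5 RPKM, median-ratio scaling, no genotype term and each library left out.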

Additional observations from a re-analysis of the deposited data

Results flagged for a closer look

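Ccl4, which encodes the chemokine MIP-1 beta, moved in opposite directions in the genotypes. Its difference of 4OHT minus EtOH in log2(RPKM + 1) was 2.82 in Runx1 delta/delta, from 11.3 RPKM in 4OHT and 0.745 RPKM in EtOH, and -0.48 in Runx1 delta/+, from 0.654 RPKM in 4OHT and 1.30 RPKM in EtOH. The lower level in Runx1 delta/+ rests on 17 reads in 4OHT against 29 in EtOH. Of all genes tested, 18.7% had log2 ratios of opposite sign in the genotypes. With 1 library per treatment and genotype, the difference between the genotypes was not tested.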

How the results depend on the processing

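For 4OHT against EtOH, 3113 genes and 7 members were called. Without the replicate block (no genotype term), 233 genes and 2 members were called, Il6 (adjusted p = 0.0349) and Tnf (adjusted p = 0.0384). With no filter on low values 3 members were called, and with a mean of at least 5 RPKM, where 3 members were tested, 3 were; the lower number there comes from fewer members tested. With each library left out, 39 to 251 genes and 0 to 3 members were called; without EtOH replicate 1 these were 39 genes and 0 members, with 5 of 8 members at an unadjusted p under 0.05. A pseudocount of 0.1 gave 6 members, and median-ratio scaling, which moved the median of all genes by more than 0.1 (0.16 as deposited, -0.02 scaled), gave 7. No fitted 4OHT change of a member reversed under these settings; Ccl4 was not fitted without 4OHT replicate 1.

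For Runx1 delta/delta against Runx1 delta/+, 1112 genes and 0 members were called. The number of genes was 646 with a mean of at least 5 RPKM and 0 with no filter (3906 at an unadjusted p under 0.05), 0 without the treatment term (880) and 0 with each library left out (166 to 629). With each library left out, genotype differences ran from -1.05 to 0.80 for Il6, -0.93 to 0.85 for Tnf, -1.11 to 1.81 for Osm, -0.60 to 2.39 for Ccl3 and -0.98 to 1.47 for Ccl6, reversing their sign; these fits drop the treatment term, so by construction the difference then holds part of the 4OHT change, and the reversals say nothing about stability. The cause of the other changes was not tested. Depth limits Il1a and Cxcl2, at no more than 19 reads in any library.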
